A study of Mus musculus with 6 samples.

Results

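Building the mitotic spindle and attaching chromosomes to it takes a defined set of proteins, and 45 genes that encode such proteins were examined in hearts of wild-type (WT) and *Pkm1*-knockout (KO) mouse embryos. They were chosen by name from the 13809 gene symbols of the deposited count table, and all 45 were found there and tested. Of them, 10 encode kinetochore proteins, 10 act in the spindle checkpoint or at anaphase, 10 are spindle motors, 7 act in spindle assembly, and 8 are condensin subunits or other proteins of mitotic chromosomes. A separate list of cytokinesis genes and the cyclins were not part of the choice. *Kif4* and *Kif14*, counted here as spindle motors, act at the spindle midzone or central spindle.

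*Pkm* encodes pyruvate kinase, the enzyme that forms pyruvate in the last step of glycolysis, and splicing of mutually exclusive exons makes PKM1 or PKM2 from it. In KO embryos a small CRISPR/Cas9 deletion in the PKM1-specific exon introduces a premature stop codon, in every cell of the body and from conception on. Both groups were hearts taken at embryonic day 18.5, which the study describes as ventricular tissue, and each held 3 biological replicates. WT carried no edited allele, KO were homozygous embryos from crosses of heterozygotes, and no treatment is named for either group. The count columns carry no replicate numbers, so libraries are called a, b and c within each genotype, and values are given in that order.

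*Pkm*, read through both splice forms together, had 1294, 1296 and 1366 CPM (counts per 1000000 of the normalized library total) in the WT libraries and 547, 530.3 and 549 CPM in the KO libraries. Every KO library lay below every WT library (log2 fold change -1.28, edgeR quasi-likelihood adjusted p = 1.47e-23). WT libraries summed to between 15597756 and 19875546 counts and KO libraries to between 15567624 and 18577404, and 3 counts correspond to 0.151 to 0.193 CPM. The 45 genes were well within reach of this depth, since the lowest count of any of them in 1 library was 94. *Xist*, which is transcribed from the inactive X chromosome, averaged 5.26 CPM in WT but 2285 CPM in KO, whereas 4 genes of the Y chromosome (*Kdm5d*, *Eif2s3y*, *Uty*, *Ddx3y*) averaged 39.1 to 93.5 CPM in WT and had no counts in KO. Effects of sex and of genotype therefore cannot be told apart in any value below. WT library c stood apart from the other WT libraries, with a chi-square per degree of freedom over genes of 3.91 against WT library a and 3.35 against WT library b, where the other pairs of one genotype had 1.56 to 1.92. Reads of the ribosomal precursor *Rn45s* made up 2.21% to 2.48% of counts in WT and 2.70% to 2.79% in KO libraries.

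In mitosis, condensins compact the replicated chromosomes while the kinetochore, a large protein assembly on centromeric chromatin, captures microtubules of the spindle. Until every kinetochore is attached, the spindle checkpoint keeps CDC20 from activating the anaphase-promoting complex, and motor proteins of the kinesin family push, slide and shorten microtubules meanwhile. Transcripts of these proteins accumulate in G2 and mitosis and are low in resting cells. Cardiomyocytes of the fetal heart still divide, and most leave the cell cycle soon after birth.

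Many promoters of this gene class share short sequence elements, and the study examined NFYa, a subunit of the NFY complex that binds the CCAAT box. A window of 250 bases before to 50 bases after the RefSeq start site was on hand for 42 of the 45 genes (not for *Spc24*, *Tpx2* and *Smc4*). *Bub3* had 2 windows, which overlap, and *Cenpk* had 3, so that the 42 genes had 45 windows in all. It was searched on both strands for the CCAAT box, which reads ATTGG on the opposite strand. The second search, also on both strands, was for the cell cycle homology region, an element bound by the DREAM and MYB-MuvB complexes. Its letters were taken as TTTGAA or, in the other form, as TTCGAA. The last 200 bases before the start (for *Cdc20* those from -200 to -10) are shown for *Cenpf*, *Mki67*, *Ckap2* and *Cdc20*, the genes with the smallest adjusted p among those that were lower in KO hearts, hold CCAAT and have a stretch free of annotated exons. Bases in capitals mark either motif, and all 4 run 5′ to 3′ on the strand of the gene, here the minus strand of GRCm38.p6.
Cenpf, chr1:189688087-189688286: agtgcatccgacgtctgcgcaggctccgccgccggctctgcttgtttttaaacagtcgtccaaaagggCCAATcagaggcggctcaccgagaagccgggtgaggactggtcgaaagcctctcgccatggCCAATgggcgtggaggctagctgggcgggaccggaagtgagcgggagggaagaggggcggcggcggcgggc
Mki67, chr7:135716380-135716579: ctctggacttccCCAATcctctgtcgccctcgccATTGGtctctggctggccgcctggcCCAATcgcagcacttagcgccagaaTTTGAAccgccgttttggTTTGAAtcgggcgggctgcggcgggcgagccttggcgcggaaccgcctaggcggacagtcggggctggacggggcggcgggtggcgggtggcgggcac
Ckap2, chr8:22185820-22186019: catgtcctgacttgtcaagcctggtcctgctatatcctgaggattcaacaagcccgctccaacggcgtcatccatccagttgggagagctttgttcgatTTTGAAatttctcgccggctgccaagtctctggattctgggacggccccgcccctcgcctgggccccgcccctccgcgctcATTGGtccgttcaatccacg
Cdc20, chr4:118437353-118437543: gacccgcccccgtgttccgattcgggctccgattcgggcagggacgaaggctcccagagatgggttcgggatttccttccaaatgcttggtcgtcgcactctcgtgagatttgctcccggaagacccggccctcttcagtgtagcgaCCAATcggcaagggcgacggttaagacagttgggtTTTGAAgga

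In *Mki67* the motifs stand close together, with CCAAT at -188, -166 and -141 and TTTGAA at -116 and -98, counted in bases from the start site. *Cenpf* holds CCAAT at -132 and -71 and TTTGAA at 3, past the shown stretch. *Cdc20* has CCAAT at -53 and, past the shown stretch, at -8, with TTTGAA at -18, and *Ckap2* has TTTGAA at -101 and CCAAT at -20. Over the whole class, 30 of 42 genes (71.4%) held CCAAT and 32 of 42 (76.2%) held TTTGAA or TTCGAA, against 42.4% and 16.2% of the 10658 genes tested that have a window. Of all 27025 genes with a window of this length, 41.1% held CCAAT and 21.7% held TTTGAA or TTCGAA. Both motifs were found in 27 of the 42 (64.3%), in 6.71% of the genes tested and in 8.61% of all genes with a window.

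Genes that were lower in KO hearts and genes that did not pass the test were set side by side, with no test of the difference. CCAAT stood in the window of 11 of the 14 lower genes with a window (78.6%) and of 19 of the other 28 (67.9%), and TTTGAA or TTCGAA in 11 of 14 (78.6%) and 21 of 28 (75%). Read on the strand of the gene alone, the shares were further apart, at 64.3% and 42.9% for CCAAT and at 71.4% and 46.4% for TTTGAA or TTCGAA, against 24.8% and 10.2% of the genes tested. For CCAAT before the start site, on either strand, they were 78.6% and 60.7%, against 39.99% of the genes tested. CCAAT was not found for *Ncapg2* and *Knstrn*, whose falls were the largest after that of *Cenpf*. *Ncapg2* held TTTGAA at -18, and *Knstrn* held neither motif. The histogram of motif places shows where in the window the letters stood. A match is a string of letters and no evidence of binding, and no binding was measured in these libraries.

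**Figure D1:**
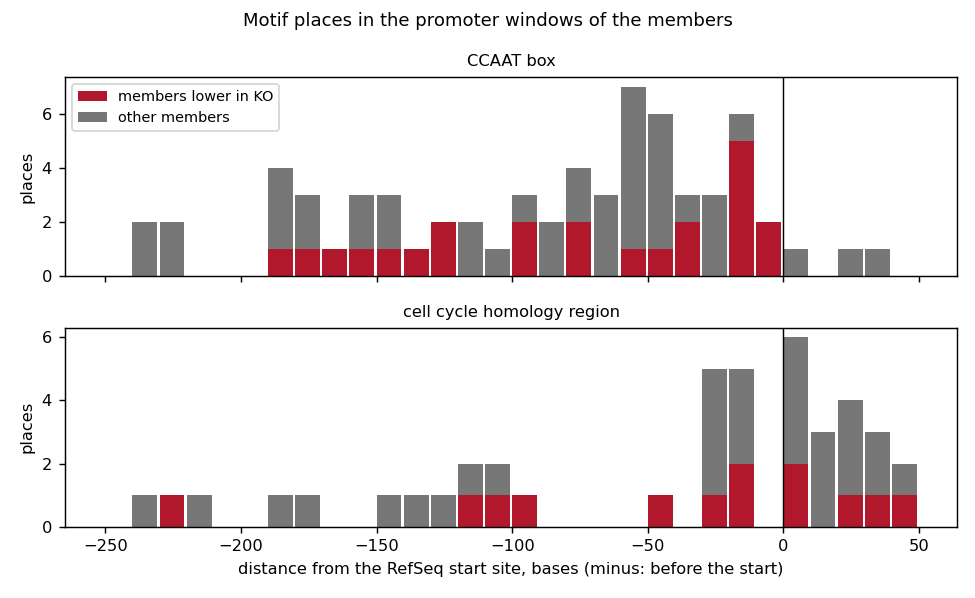
Places of CCAAT (upper panel) and of TTTGAA or TTCGAA (lower panel) by distance from the RefSeq start site in bases, on either strand, stacked for genes lower in KO hearts (red) and the others (grey). A place that lies in both *Bub3* windows is drawn once, at the nearer start, and CCAAT was found at 66 places with a median of -69.5 and 3 past the start, whereas TTTGAA or TTCGAA was found at 42 places with a median of -18.5 and 18 past the start.

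Transcripts of the 45 genes, which were chosen with earlier results of these data known, were as a set moderately less abundant in KO hearts. With an adjusted p under 0.05, 15 genes (33.3%) were lower in KO, by 7.87% to 20.0% of the WT mean, and none was higher. The background over 13804 genes was 15.7% lower and 14.6% higher, and among the 10511 genes within the range of mean CPM of the 45, 17.0% were lower and 15.0% higher. Of 92 other genes of the same machinery, described below, 18.5% were lower and 6.52% higher, so the shares of the 45 do not stand for the whole machinery. DESeq2 gave 10 of the 45 lower, without *Cenpe*, *Bub3*, *Nusap1*, *Plk1* and *Hmmr*, where 11.9% of all genes were lower by that test. At an unadjusted p under 0.05, 22 of the 45 were lower and 0 higher by the quasi-likelihood test, and 0 were higher by DESeq2. The share of all genes at that level was not counted, so these counts have no background to be read against. Without WT library c, 18 of the 45 were lower and 0 higher, where 16.7% of all genes were lower and 14.6% higher, and the median log2 fold change of the 45 was -0.11. In that fit 4 kinetochore, 3 checkpoint and anaphase, 2 spindle motor, 3 spindle assembly and 6 condensin and chromosome genes were lower. In these bulk samples, fewer dividing cells and less mitotic RNA per cell cannot be told apart.

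The log2 fold changes of KO over WT ran from -0.32 to 0.10, and 38 of 45 lay below 0 (84.4%, against 49.6% of all genes tested). Their median was -0.12, where that of all genes tested was 0.00172. None of the 45 changed by 1.5-fold or more. Groups did not overlap for 22 genes with all KO libraries below all WT libraries (48.9%, against 21.4% of all genes tested) and for 1 gene, *Ttk*, with all KO libraries above (21.0% of all genes tested). Of the 15 genes called lower, 14 had no overlap. *Nusap1* was the exception. Not passing the test does not show equality: the 95% intervals of the other 30 genes reached from -0.44 to 0.25, and 23 of the 30 lay below 0.

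**Figure D2:**
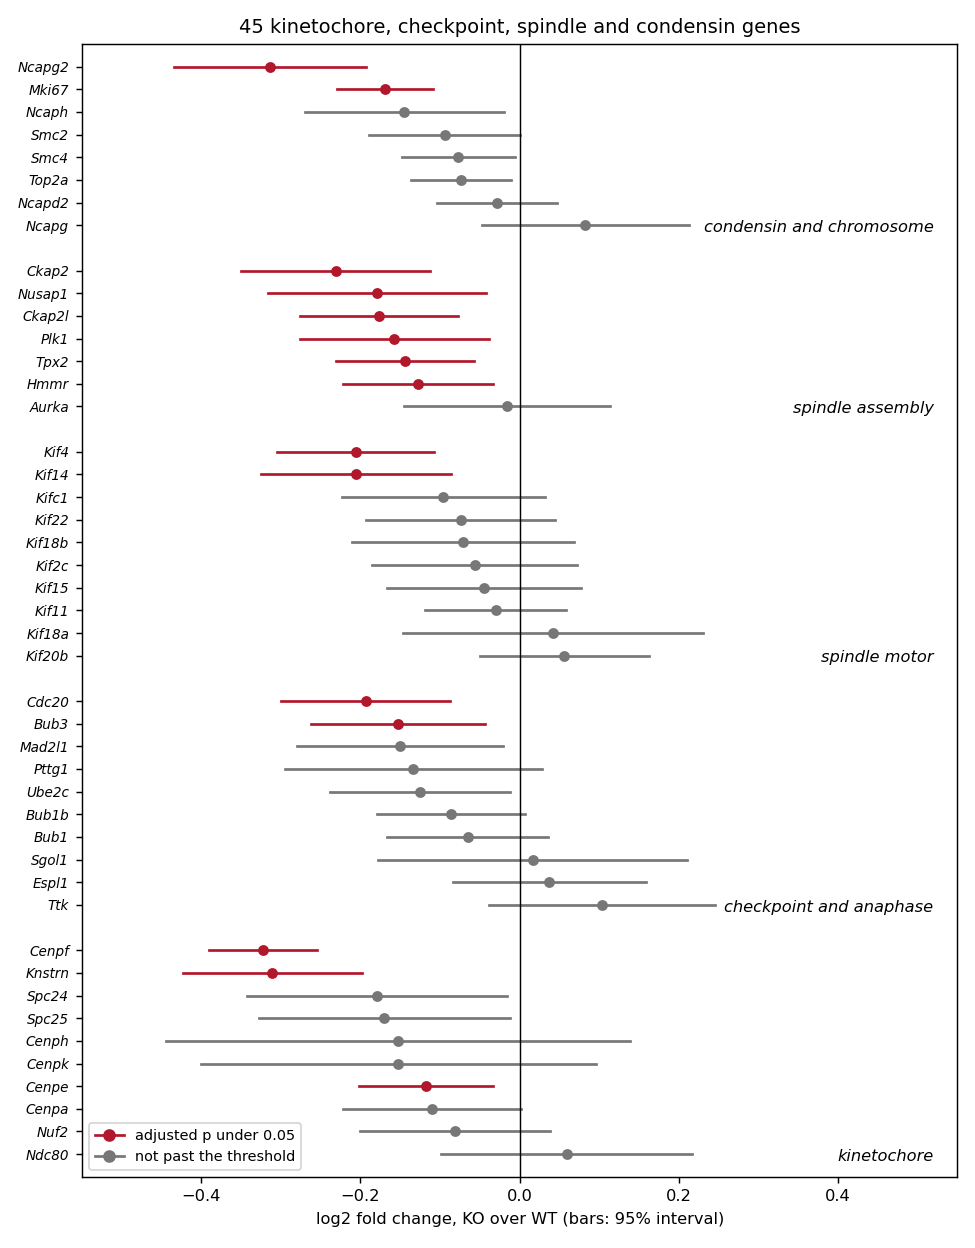
Log2 fold change of KO over WT for each of the 45 genes with its 95% interval (horizontal axis), grouped by role, with genes past the adjusted p threshold in red and the others in grey. The 15 red genes all lie left of 0, and the 7 genes right of 0 are grey and reach 0.10.

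Summed over the 45 genes, WT libraries held 3531, 3530 and 3515 CPM and KO libraries 3231, 3246 and 3213 CPM. The ranges did not overlap, and the KO mean (3230.0 ± 16.5 CPM, SD, n = 3) was 91.6% of the WT mean (3525 ± 8.72 CPM, SD, n = 3). As *Mki67*, *Top2a* and *Cenpf* alone supplied 34.8% of the WT sum, the sum was also formed over the remaining 42 genes, where KO was 93.2% of WT. The sums follow the scaling of the libraries. Without normalization beyond library totals, a choice added after the data were seen, the 45 genes took 3430.1 to 3492 of every 1000000 counts in WT and 3268 to 3302 in KO, again without overlap. Under that scaling 9 of the 45 genes were lower and none higher, their median log2 fold change was -0.07 beside 0.0492 for all genes, and 11.1% of all genes were lower and 21.1% higher.

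By role, the KO sum was 86.1% of WT for kinetochore genes, 90.2% for spindle assembly, 92.3% for condensin and chromosome genes, 93.8% for checkpoint and anaphase genes and 95.4% for spindle motors. Only the motors overlapped, with 459 to 487 CPM in the WT libraries and 447 to 464 CPM in KO libraries. Whether the groups differ from each other in size of change was not tested.

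**Figure D3:**
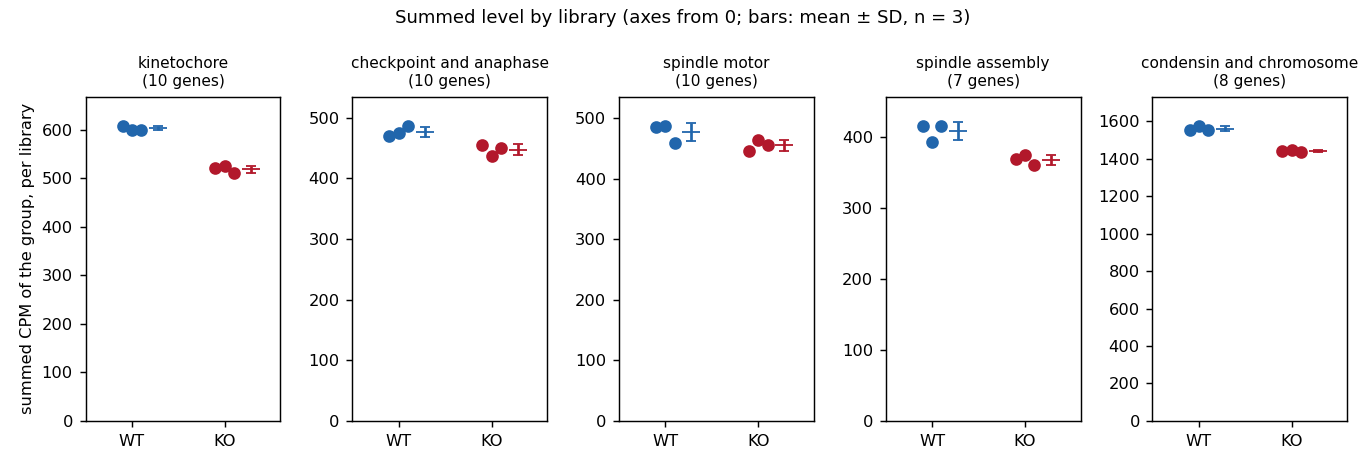
Summed CPM of each role group in each library (vertical axes from 0, one scale per panel), WT in blue and KO in red, with mean ± SD of 3 libraries beside the points. WT and KO libraries are apart in 4 panels and overlap for the spindle motors, 459 to 487 CPM against 447 to 464 CPM.

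Kinetochore genes were led by *Cenpf* and *Knstrn*, and 3 of the 10 were lower (30%, against 15.7% of all genes tested) and 0 higher. In this group 9 lay below 0 and the median log2 fold change was -0.15. *Cenpf* (chr1:189640606-189688086), a very large protein of the outer kinetochore and nuclear envelope that binds dynein regulators, was measured at 258, 264 and 268 CPM in the WT libraries and at 217, 212 and 204 CPM in KO hearts. The highest KO library stayed well under the lowest WT library, and *Cenpf* had the largest fall of the class (log2 fold change -0.32, SE 0.0332, edgeR quasi-likelihood adjusted p = 2.37e-08). *Knstrn* (chr2:118814003-118853957) encodes a small kinetochore-associated protein that binds microtubule ends, and it gave 60.5, 55.1 and 54.9 CPM in the WT libraries and 44.1, 45.8 and 47.6 CPM in KO. Its groups were clearly apart (log2 fold change -0.31, SE 0.0549, adjusted p = 9.19e-05).

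*Cenpe* (chr3:135212537-135273611), the kinesin that carries chromosomes towards the spindle equator, gave 101, 102 and 104 CPM in the WT libraries and 97.4, 93.1 and 92.2 CPM in KO. All KO libraries lay below WT, but the distance was small (log2 fold change -0.12, SE 0.0408, adjusted p = 0.030). The call was lost without WT library b (adjusted p = 0.068), without KO library b (0.101) and without KO library c (0.122).

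The NDC80 complex, the main microtubule coupler of the kinetochore, had 0 of 4 genes past the quasi-likelihood threshold and 0 with DESeq2. By the quasi-likelihood test 15.7% of all genes tested were lower and 14.6% higher. A set of 4 genes is too small to be set against these shares. *Spc24* and *Spc25* had an unadjusted quasi-likelihood p under 0.05, a level at which the share of all genes was not counted. *Ndc80* itself was read at 22.1 ± 0.864 CPM in the WT libraries and 23.1 ± 2.22 CPM in KO (SD, n = 3), and its groups overlapped. *Nuf2* and *Spc24* had every KO library below WT (log2 fold changes -0.08 and -0.18, adjusted p = 0.309 and 0.089), and *Spc25* overlapped (log2 fold change -0.17, adjusted p = 0.096) but passed without WT library c (adjusted p = 0.0035). *Cenpa*, the histone H3 variant that marks centromeres, averaged 54.2 CPM in the WT libraries and 50.3 CPM in KO, without overlap and with an adjusted p of 0.129. *Cenph* and *Cenpk*, subunits of the inner kinetochore, had the fewest reads of the class, at 5.03 to 11.8 CPM per library, and their groups overlapped.

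Among checkpoint and anaphase genes, *Cdc20* and *Bub3* were lower, 2 of 10 (20%, against 15.7% of all genes tested), with 0 higher. In this group 7 lay below 0 and the median log2 fold change was -0.11. *Cdc20* (chr4:118432901-118437352), the activator of the anaphase-promoting complex that the checkpoint holds back, was measured at 58.3, 55.1 and 55.5 CPM in the WT libraries and at 50.8, 47.9 and 48.9 CPM in KO hearts. Groups did not overlap (log2 fold change -0.19, SE 0.0515, adjusted p = 0.0054), and the call held without any 1 library, with adjusted p at most 0.032. *Bub3* (chr7:131560222-131571895), a checkpoint protein that docks BUB1 and BUBR1 at kinetochores, gave 51.8, 50.01 and 49.8 CPM in the WT libraries and 43.8, 45.7 and 47.0 CPM in KO. It too separated the genotypes (log2 fold change -0.15, SE 0.0529, adjusted p = 0.030), yet the call was lost without WT library a (adjusted p = 0.093), WT library b (0.055), KO library a (0.139) or KO library b (0.068).

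The kinase-like checkpoint protein BUBR1 is encoded by *Bub1b*, the highest of this group in CPM. It was read at 92.8, 96.3 and 104 CPM in the WT libraries and at 95.004, 91.7 and 89.2 CPM in KO hearts. Its groups overlapped (log2 fold change -0.09, SE 0.0455, adjusted p = 0.156). *Ttk*, which encodes the checkpoint kinase MPS1, was the one gene of the class with all KO libraries above WT, at 22.5, 22.7 and 21.8 CPM in the WT libraries and 24.7, 23.3 and 23.9 CPM in KO. It did not pass the test (log2 fold change 0.10, 95% interval -0.04 to 0.25, adjusted p = 0.270).

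The others of the group did not pass. *Mad2l1*, whose product MAD2 inhibits CDC20, had a log2 fold change of -0.15 (adjusted p = 0.072), with overlap in KO library c only, and passed without WT library c or without KO library c. *Ube2c*, the ubiquitin-conjugating enzyme of the anaphase-promoting complex, had -0.13 (adjusted p = 0.088). *Pttg1*, which encodes securin, had -0.13 (adjusted p = 0.206), while *Espl1*, the separase that securin inhibits, had 0.04 (adjusted p = 0.675). *Bub1* had -0.07 (adjusted p = 0.339) and *Sgol1*, the protector of centromeric cohesin, 0.02 (adjusted p = 0.917).

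Of the 10 spindle motors, *Kif4* and *Kif14* were lower (20%, against 15.7% of all genes tested) and 0 were higher. In this group 8 lay below 0 and the median log2 fold change was -0.06. *Kif4* (chrX:100625737-100727214), a chromosome-bound kinesin that limits microtubule growth at the spindle midzone, gave 68.3, 71.1 and 67.0 CPM in the WT libraries and 59.3, 61.6 and 58.4 CPM in KO hearts. KO and WT libraries did not overlap (log2 fold change -0.21, SE 0.0479, adjusted p = 0.0017). It is the only X-linked gene of the 45. Of the 477 X-linked genes tested 15.1% were lower and 10.1% higher in KO, against 15.7% and 14.6% of all genes tested. As for every other gene, sex and genotype cannot be told apart for *Kif4*. *Kif14* (chr1:136466343-136531511), a kinesin of the central spindle, gave 37.8, 38.2 and 37.2 CPM in the WT libraries and 32.9, 33.5 and 31.8 CPM in KO. Its WT libraries were tightly grouped and all above KO (log2 fold change -0.21, SE 0.0581, adjusted p = 0.0084).

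*Kif11*, the bipolar kinesin-5 motor that pushes spindle poles apart, was the motor with the highest CPM. It was read at 130.3, 131 and 118 CPM in the WT libraries and at 120.2, 129 and 123 CPM in KO hearts. The genotypes overlapped fully (log2 fold change -0.03, SE 0.0431, 95% interval -0.12 to 0.06, adjusted p = 0.640). *Kif15*, which can assist KIF11, had a log2 fold change of -0.05 (adjusted p = 0.608). For *Kifc1*, a minus-end motor that bundles spindle microtubules, it was -0.10 (adjusted p = 0.254). Of the depolymerizing kinesins, *Kif2c*, *Kif18a* and *Kif18b* had values of -0.06, 0.04 and -0.07 with adjusted p of 0.535, 0.767 and 0.461. *Kif22*, a chromokinesin, and *Kif2c* had all KO libraries below WT without passing the test, and *Kif20b* was at 0.06 (adjusted p = 0.442).

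Of the 7 spindle assembly genes, 6 were lower (85.7%, against 15.7% of all genes tested) and 0 higher. All 7 lay below 0 and the median log2 fold change was -0.16. The number of lower genes went from 6 to 4 without WT library a, 5 without WT library b, 3 without WT library c, KO library a or KO library b, and 2 without KO library c. *Ckap2* (chr8:22168160-22185819), which encodes a spindle protein that promotes microtubule growth, gave 38.9, 38.0 and 37.3 CPM in the WT libraries and 32.7, 32.1 and 32.5 CPM in KO hearts. Both groups were tight and far apart (log2 fold change -0.23, SE 0.0577, adjusted p = 0.0032). Its relative *Ckap2l* (chr2:129268210-129297212), needed for an ordered spindle, gave 69.0, 65.1 and 67.7 CPM in the WT libraries and 59.4, 61.4 and 57.9 CPM in KO. Here also no library overlapped (log2 fold change -0.18, SE 0.0482, adjusted p = 0.0067). *Tpx2* (chr2:152847964-152895321), the activator of Aurora A that nucleates microtubules around chromosomes, was measured at 92.8, 89.1 and 91.1 CPM in the WT libraries and at 82.9, 83.4 and 80.9 CPM in KO. Groups were apart (log2 fold change -0.14, SE 0.0421, adjusted p = 0.011), though without KO library c the adjusted p was 0.054.

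*Hmmr*, *Plk1* and *Nusap1* were closer to the threshold, and each lost the call in several fits that left out 1 library. *Hmmr* (chr11:40701395-40733422), a spindle pole protein that works with TPX2, gave 76.1, 82.0 and 82.5 CPM in the WT libraries and 73.3, 74.96 and 72.1 CPM in KO (log2 fold change -0.13, SE 0.0460, adjusted p = 0.036). WT library a came close to the KO libraries without overlap. The call was lost without WT library b (adjusted p = 0.135) or c (0.056) and without KO library a (0.099), b (0.056) or c (0.128).

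*Plk1* (chr7:122159439-122169873), the Polo-like kinase that drives centrosome maturation and kinetochore attachment, gave 48.6, 43.5 and 48.8 CPM in the WT libraries and 41.2, 43.4 and 41.6 CPM in KO (log2 fold change -0.16, SE 0.0576, adjusted p = 0.040). WT library b was nearly level with KO library b. Without WT library a or c its adjusted p was 0.134 or 0.084, and without KO library a, b or c it was 0.132, 0.052 or 0.115. *Nusap1* (chr2:119618298-119651244), which bundles spindle microtubules, gave 54.4, 43.4 and 52.4 CPM in the WT libraries and 43.6, 46.0 and 42.7 CPM in KO. WT library b lay within the KO range, so the groups overlapped (log2 fold change -0.18, SE 0.0665, adjusted p = 0.042). Without WT library b the adjusted p of *Nusap1* was 0.0019, and without WT library a it was 0.234, WT library c 0.063, KO library a 0.129, KO library b 0.050 and KO library c 0.161. *Aurka*, the Aurora A kinase, was the 1 gene of the group that did not pass, at 34.1 ± 1.82 CPM in the WT libraries and 33.6 ± 1.73 CPM in KO (SD, n = 3).

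**Figure D4:**
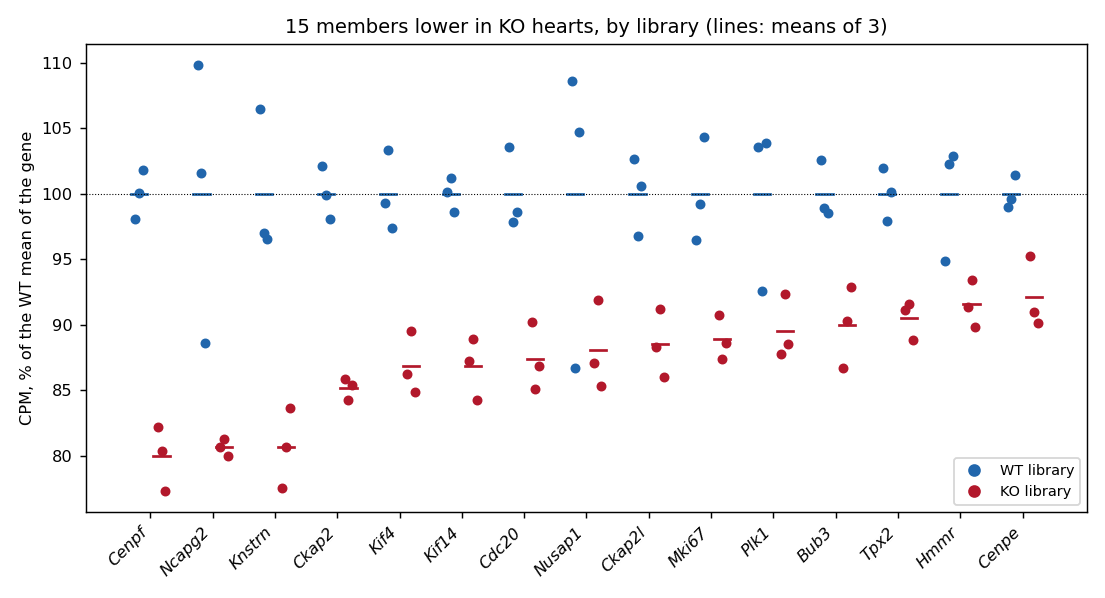
CPM of the 15 genes lower in KO hearts in each library as a percent of the WT mean of that gene (vertical axis), WT in blue and KO in red, with lines at the means of 3 libraries. *Cenpf*, with the KO mean 20.0% below WT, is at the left and *Cenpe*, 7.87% below, at the right, and *Nusap1* is the gene whose WT and KO points overlap.

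Condensin and chromosome genes had 2 of 8 lower (25%, against 15.7% of all genes tested), *Ncapg2* and *Mki67*, and 0 higher. In this group 7 lay below 0 and the median log2 fold change was -0.09. *Mki67* (chr7:135689784-135716361), the Ki-67 antigen that coats mitotic chromosomes and serves as the common marker of cycling cells, was measured at 593, 609.9 and 641 CPM in the WT libraries and at 558, 537 and 544 CPM in KO hearts. KO libraries all lay below WT (log2 fold change -0.17, SE 0.0295, adjusted p = 7.92e-05). *Ncapg2* (chr12:116405402-116463731), a subunit of condensin II, gave 75.001, 69.4 and 60.5 CPM in the WT libraries and 55.1, 55.5 and 54.6 CPM in KO. WT libraries were widely spread and KO libraries close together, without overlap (log2 fold change -0.31, SE 0.0587, adjusted p = 1.79e-04), and the adjusted p was at most 0.0030 without any 1 library.

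Condensin I and II share the SMC2 and SMC4 ATPases and differ in their other 3 subunits. Of the condensin II subunits, *Ncapg2* and *Ncaph2* were lower and *Ncapd3* was not (log2 fold changes -0.31, -0.14 and 0.02). *Ncaph2* and *Ncapd3* were added from the wider list of the same machinery. Of the condensin I subunits *Ncapd2*, *Ncapg* and *Ncaph*, 0 of 3 passed the quasi-likelihood test (log2 fold changes -0.03, 0.08 and -0.14, adjusted p = 0.601, 0.349 and 0.074) and 0 passed DESeq2. *Ncaph* had an unadjusted quasi-likelihood p under 0.05, a level at which the share of all genes was not counted. By the quasi-likelihood test 15.7% of all genes tested were lower, and sets of 3 genes are too small to be set against that share. *Smc2* and *Smc4* had log2 fold changes of -0.09 and -0.08 (adjusted p = 0.125 and 0.091), and *Top2a*, the topoisomerase that untangles sister DNA, -0.07 (adjusted p = 0.069). Whether the complexes differ in their change was not tested. Without WT library c, the number of genes called lower in the group of 8 went from 2 to 6, with *Smc2*, *Smc4*, *Ncaph* and *Top2a* added.

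Levels and changes did not follow the same order. For a rough comparison between genes, levels were divided by kilobases of exon. The length was the union of all annotated exons of a gene, which can exceed the length of the transcript present. On this scale WT levels were highest for *Mki67* (61.1 CPM per kb), *Smc4* (40.8) and *Top2a* (38.8), and of these *Mki67* alone passed the test. *Cdc20* (30.1), *Ube2c* (29.3), *Ncapd2* (24.1) and *Bub1b* (22.9) followed, and *Kif18a* (1.39) and *Cenpk* (1.86) were lowest. The genes with the largest falls were spread over that order, with *Cenpf* at 17.1 CPM per kb (rank 11 of 45), *Knstrn* at 11.0 (rank 21) and *Ncapg2* at 6.87 (rank 32). Counts behind the 45 genes ranged from 631 to 61115 over the 6 libraries, with mean CPM of 6.03 to 580.5 and a median of 45.3, where the median of all genes tested was 22.8 CPM.

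**Figure D5:**
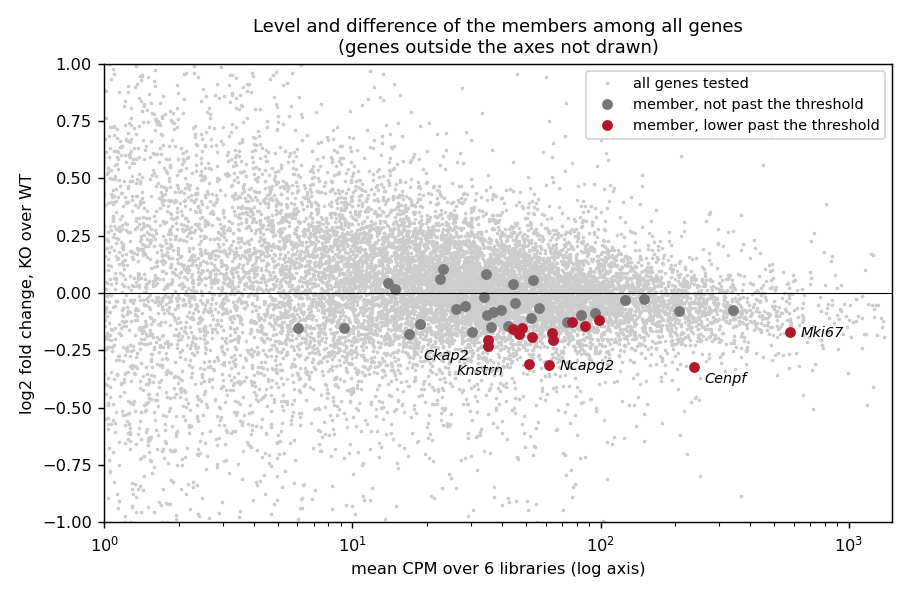
Mean CPM over 6 libraries (horizontal log axis) against the log2 fold change of KO over WT (vertical axis) for all genes tested (light grey) and the 45 genes, red where lower past the threshold and dark grey elsewhere. The red genes lie between 35.2 and 580.5 CPM, and the lowest dark grey gene, *Cenph*, lies at 6.03 CPM.

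Libraries of one genotype moved little against each other. The median over the 45 genes of the log2 ratio to the WT mean was 0.02, 0.01 and -0.03 in WT libraries a to c and -0.13, -0.08 and -0.11 in KO libraries a to c. Each KO library thus had a lower median than each WT library, with 36 to 39 of the 45 genes below the WT mean. The common biological coefficient of variation of the fit was 3.42%.

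The 45 genes lie on 16 chromosomes, and 11 of them, 4 of these among the 15 lower genes, lie on chromosome 2. The 9 genes *Cenpf*, *Mki67*, *Knstrn*, *Ncapg2*, *Kif4*, *Ckap2*, *Cdc20*, *Ckap2l* and *Kif14* kept the call in every alternative in which they were tested, 15 alternatives in all (14 for *Kif4*, which the fit without X- and Y-linked genes left out). The other 6 lost it in at least 1 fit.

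Of 92 other genes of the same machinery, drawn from a wider list of kinetochore, checkpoint, cohesin, spindle and condensin proteins, 17 were lower (18.5%) and 6 higher (6.52%). The share of lower genes was near the 15.7% of all genes tested, and the share of higher genes was below their 14.6%. The median log2 fold change of the 92 was -0.02, with 56 below 0. *Zw10*, a subunit of the RZZ complex that recruits dynein and checkpoint proteins to kinetochores, had the largest change, from 26.9, 27.2 and 26.7 CPM in WT to 18.8, 19.0 and 19.3 CPM in KO (log2 fold change -0.50, SE 0.0687, adjusted p = 2.76e-06). Its partners *Zwilch* and *Kntc1* did not pass (log2 fold changes 0.19 and -0.06, adjusted p = 0.122 and 0.392).

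In the SKA complex, which tracks microtubule ends with NDC80, *Ska1* was lower (11.5 ± 0.787 CPM in WT, 8.62 ± 1.12 CPM in KO, SD, n = 3; log2 fold change -0.43, adjusted p = 0.0039) and *Ska2* was higher (22.6 ± 1.11 and 31.3 ± 0.945 CPM; log2 fold change 0.47, adjusted p = 4.74e-06). *Ska3* did not pass (log2 fold change 0.10, adjusted p = 0.408). *Oip5*, a loading factor for centromeric histone, fell by 0.36 on the log2 scale (adjusted p = 0.033). *Mad2l1bp*, which encodes the MAD2-binding protein that silences the checkpoint, was higher (log2 fold change 0.49, adjusted p = 0.0012), as was *Esco1*, a cohesin acetyltransferase (0.33, adjusted p = 0.0016). Without KO library a, 8 of the 92 genes were lower. The share of all genes lower in that fit was not counted, so the fall cannot be assigned to this list.

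For comparison, 7 of 11 cytokinesis genes were lower (63.6%) and 0 higher, with a median log2 fold change of -0.18. Of 23 genes of replication licensing and DNA synthesis, 2 were lower (8.70%) and 1 higher (4.35%), with a median of -0.05. The 45 genes lay between these lists in the share of lower genes and in the median. Of all genes tested, 15.7% were lower and 14.6% higher. A test of the differences between the lists was not run.

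Cell type markers moved with genotype too, where 15.7% of all genes tested were lower and 14.6% higher. Of 8 cardiomyocyte markers, 6 were lower and 2 higher (summed level 59191 to 62737 CPM in WT, 54667 to 55504 CPM in KO). Of 8 fibroblast markers, 4 were lower and 0 higher (3946 to 3992 CPM and 3677 to 3746 CPM). Among 6 smooth muscle and pericyte markers 3 were lower and 0 higher (922 to 964 CPM and 909 to 913 CPM), and among 8 endothelial markers 3 were lower and 1 higher (1226 to 1229.6 CPM and 1197 to 1214 CPM). Higher in KO were 3 of 5 atrial markers (586 to 594 CPM in WT, 999 to 1022 CPM in KO) and 3 of 6 epicardial markers (124 to 127 CPM and 141 to 155 CPM). For 8 immune markers the KO sum was 99.6% of WT, and for 3 erythroid markers 111%. No marker tested was at 0, and the defining cardiomyocyte markers *Myh6*, *Myh7* and *Tnnt2* were present at 13979, 19536 and 4901 CPM in the WT libraries and 10191, 20207 and 4130.0 CPM in KO. The part of cell type composition in the lower mitotic transcripts was not tested.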

How the data were processed

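Total RNA was depleted of ribosomal RNA and sequenced in paired ends, 3 libraries per genotype. Per the labels, the authors' processing named cutadapt 1.18, HISAT2, StringTie and the build mm10 (the same assembly as GRCm38), and the program and annotation behind the counts are not given in the sources used here. The deposited table holds raw counts per gene symbol. It also holds the authors' own edgeR columns (fold changes, average level, p-values and false discovery rates), which were not used. Raw counts were fitted with edgeR 4.0.16 (R 4.3.3; filterByExpr, TMM, glmQLFit and glmQLFTest, genotype as the single term), and p-values were adjusted by Benjamini-Hochberg over 13804 genes (5 left out as low). CPM are counts per 1000000 of the TMM-scaled total. The p-values rest on 3 libraries a genotype, and intervals at the 3-count level cover counting error only. Gene positions are from the GENCODE annotation of GRCm38 and promoter windows from RefSeq GRCm38.p6. No library pair agreed within sampling noise (chi-square per degree of freedom 1.56 to 3.91).

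The genes and lists were chosen with earlier results of these data known. Values are given in full for every gene past the threshold, for the gene with the highest CPM and the largest change in each role group, and for X-linked genes, and of the wider list for the 6 called genes with the largest change. Alternatives were other scalings and filters, DESeq2 1.42.0, edgeR's exact test, limma 3.58.1 (voom), leaving out X- and Y-linked genes, *Rn45s* or 1 library at a time. The procedure was tested on simulated data.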

Additional observations from a re-analysis of the deposited data

How the results depend on the processing

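Of the 45 genes, 15 were lower in KO hearts, 10 with DESeq2, 14 with the exact test, 14 with voom, 14 without X- and Y-linked genes, 11 to 18 when 1 library was left out, and 9 with library totals only (a scaling added after the data were seen). The median log2 fold change was -0.13 to -0.09 with 1 library left out and -0.0697 with library totals only, where that of all genes was 0.0492. None of the 45 was called higher in any of these fits. Of all genes, 11.9% were lower with DESeq2, 11.1% with library totals only and 16.7% without WT library c. For the other fits the share of all genes was not counted. Kinetochore genes numbered 2 to 4 lower with 1 library left out. Checkpoint and anaphase genes numbered 1 lower with DESeq2, 1 with library totals only and 1 to 3 with 1 library left out. Spindle motors numbered 1 lower without X- and Y-linked genes, where *Kif4* is not tested, and 2 in each fit with 1 library left out. Spindle assembly genes numbered 3 lower with DESeq2, 2 with library totals only and 2 to 5 with 1 library left out, and condensin and chromosome genes 2 to 6. Of the 92 other genes of the machinery, 10 were lower with DESeq2, 9 with library totals only and 8 to 19 with 1 library left out, and 4 to 7 were higher with 1 library left out. CCAAT on the strand of the gene alone was found for 21 genes. The causes were not tested.

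Genes that did not pass changed sign as follows. With library totals only, the log2 fold changes were 0.0314 for *Aurka*, 0.0173 for *Kif11*, 0.00222 for *Kif15* and 0.0194 for *Ncapd2*. With 1 library left out, they ranged from -0.0651 to 0.0106 for *Aurka* (above 0 without WT a, WT c, KO b or KO c), from -0.255 to 0.00165 for *Cenpk* (above 0 without WT a), from -0.0258 to 0.0871 for *Espl1* (below 0 without WT a), from -0.0368 to 0.0989 for *Kif18a* (below 0 without WT c) and from -0.0473 to 0.123 for *Sgol1* (below 0 without WT b, WT c or KO b). No paired analysis was possible because the count columns carry no replicate numbers, and no pair of libraries was merged because none agreed within sampling noise. Depth limits genes near *Cenph*, whose 95% interval spanned -0.44 to 0.14.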
